A study of Mus musculus with 2 samples.

Results

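The 10 genes described here encode mucins and other products that airway and alveolar cells use to defend the lung surface. They are the membrane mucins Muc1, Muc4 and Muc16, the gel-forming mucin Muc5b, the BPI-fold proteins Bpifa1 and Bpifb1, the iron-binding protein lactoferrin (Ltf), the polymeric immunoglobulin receptor (Pigr), the antibacterial lectin Reg3g and the lysozyme Lyz2. They were chosen by symbol and not by a measured value, though with earlier results of these data known. All 10 of 10 symbols were found on 1 row each, among 31053 annotated genes, in both count matrices. Lung cells came from *Pclaf* WT and *Pclaf* KO mice aged 8 to 10 weeks, 1 week after an instillation of bleomycin at 1.35 U/kg, a drug that injures the alveolar lining. Cells were sorted as Cd31-/Cd45-/Epcam+, that is, without endothelial and leukocyte surface proteins and with an epithelial one. They were measured in 1 droplet-based single-cell library per genotype (10x Genomics, 3' counts). Both libraries were injured, the KO mice were of a line established earlier, and the number of mice in each library is not given in the sources used here. With 1 library per genotype no difference could be tested, so both values are given, and WT and KO stand for the libraries labelled *Pclaf* WT and *Pclaf* KO.

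UMIs (unique molecular identifiers, each standing for 1 captured transcript molecule) were summed over the cells of a class in a library and are given as CPM, counts per 1000000 UMIs of that class. Intervals are 95%, exact Poisson for CPM, exact conditional for log2 ratios of KO over WT and exact binomial (Clopper-Pearson) for shares of cells. They cover counting error only, and cells of a library are not replicates. The deposited matrices held 30669 WT barcodes with 98171818 UMIs and 17172 KO barcodes with 111267567 UMIs, of which 30187 and 15637 cells were kept, with a median of 2127 and 5957 UMIs. Both matrices held more barcodes than the number of cells given as loaded per group. The same barcode occurred in both libraries 138 times among kept cells. The libraries differed in makeup: epithelial clusters held 5.61% of WT and 67.6% of KO kept cells, and immune clusters 36.9% and 2.67%, so most cells of the WT library were not of the kind the sort selects. *Pclaf*, the gene deleted in the KO, was counted in both libraries. Cycling immune-like cells had 528 CPM of it in WT against 330 CPM in KO (28 UMIs in 6 KO cells), and AT2-like cells 11.4 and 6.10 CPM. Whether the 3' tags of *Pclaf* lie inside the deleted part is not given in the sources used here, so this does not check the labels, and every direction below rests on them.

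The airway surface is lined by club cells, goblet (mucous) cells and ciliated cells over basal cells, and the alveolus by AT1 and AT2 cells. Gel-forming mucins make up the mucus that cilia move, membrane mucins coat the cell surface, and secreted antimicrobial proteins and transported antibody act in the fluid between them. Krt8+ cells are an intermediate state between AT2 and AT1 cells that appears after injury. Classes were named from marker genes, and none of the 10 genes was a marker or was used to build the clusters. Goblet-like cells numbered 13 in WT and 61 in KO, club-like cells 65 and 383, AT2-like cells 1000 and 7018, ciliated-like cells 206 and 1239, and Krt8+-like cells 247 and 1336. All 8 club, 12 AT2, 10 ciliated and 12 Krt8+ markers, and 7 of 8 goblet markers, were at least 2 times their level in background cells in both libraries. The background was taken from capillary endothelial-like and lymphoid-like cells, which should lack the airway products, with a median of 2221 UMIs per cell in WT and 2664 in KO. The same markers named the classes, so these folds are no separate check of the names. This background also cannot tell airway classes from alveolar ones. The club markers summed to 325008 CPM in WT and 258772 CPM in KO goblet-like cells. The goblet markers summed to 42112 and 43315 CPM there. Goblet-like cells had a median of 11399 UMIs in WT and 14174 in KO.

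Bpifa1, Bpifb1, Ltf and Reg3g were the 4 antimicrobial genes that were highest in goblet-like cells among the 5 epithelial classes compared below, so the 250 bases before their start sites are shown, from RefSeq on GRCm38.p6. Bpifa1 is at chr2:154142630-154142879 on the plus strand, Bpifb1 (the first of its 2 listed starts) at chr2:154190568-154190817 on the plus strand, Ltf at chr9:111019042-111019291 on the plus strand and Reg3g at chr6:78468875-78469124 on the minus strand. Sequences read 5' to 3' toward the gene, and capitals mark the letters that matched a searched motif on either strand.
Bpifa1: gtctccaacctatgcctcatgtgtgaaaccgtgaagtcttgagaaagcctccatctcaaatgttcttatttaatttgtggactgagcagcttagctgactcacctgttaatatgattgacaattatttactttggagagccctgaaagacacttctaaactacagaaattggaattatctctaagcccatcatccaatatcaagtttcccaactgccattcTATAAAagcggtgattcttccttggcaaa
Bpifb1: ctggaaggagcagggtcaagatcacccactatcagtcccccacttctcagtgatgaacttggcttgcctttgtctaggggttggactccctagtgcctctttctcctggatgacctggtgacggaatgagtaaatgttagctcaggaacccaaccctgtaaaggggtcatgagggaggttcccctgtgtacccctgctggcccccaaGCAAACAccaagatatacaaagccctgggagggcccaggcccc
Ltf: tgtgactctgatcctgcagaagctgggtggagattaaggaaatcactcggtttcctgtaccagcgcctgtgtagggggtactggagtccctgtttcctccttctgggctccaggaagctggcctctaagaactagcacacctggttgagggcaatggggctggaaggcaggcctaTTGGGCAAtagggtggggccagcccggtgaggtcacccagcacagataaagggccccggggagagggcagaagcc
Reg3g: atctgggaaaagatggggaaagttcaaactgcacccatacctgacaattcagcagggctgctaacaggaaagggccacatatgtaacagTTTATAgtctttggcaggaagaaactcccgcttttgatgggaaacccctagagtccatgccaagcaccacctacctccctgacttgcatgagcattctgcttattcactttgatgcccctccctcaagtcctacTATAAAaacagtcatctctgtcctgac

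A TATA box (TATAAA), found in 12.4% of 32851 promoters of the same length, lay at -29 to -24 from the start of Bpifa1 and at -27 to -22 from that of Reg3g, which held a second match on the minus strand at -161 to -156. Bpifb1 held a FOXA motif (TGTTTAC or TGTTTGC, in 7.29% of promoters) on the minus strand at -43 to -37. Ltf held a C/EBP motif (TTGCNNAA, in 9.56%) on the minus strand at -75 to -68. Upstream entries were found for 9 of the 10 members, all but Muc5b. The 4 windows shown held neither a STAT motif (TTCNNNGAA, in 7.02%) nor either of the NF-kB site forms searched (in 0.225%). The other listed start of Bpifb1 held a STAT match at -146 to -138. A match describes the letters only. Of the other members, Muc1 and Muc4 held a TATA box at -31 to -26 and at -36 to -31, and the windows of Muc16, Pigr and Lyz2 held none of the 5 motifs. Bpifa1 and Bpifb1 are neighbours on chromosome 2, with 41598 bases between them, and their windows were identical at 28.8% of positions when aligned from the start site without gaps.

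Among the 5 compared epithelial classes only, 7 of the 10 genes had their highest level in goblet-like cells of both libraries. These were Muc5b, Muc16, Bpifa1, Bpifb1, Ltf, Pigr and Reg3g. Of the same 5 classes, Muc1 and Lyz2 were highest in AT2-like cells and Muc4 in ciliated-like cells, in both libraries. Outside them, Muc16 was higher in mesothelial-like cells (920 CPM in WT and 1083 in KO) than in goblet-like cells. Bpifa1 was higher in the 8 WT basal-like cells (22612 CPM), and Lyz2 was higher in alveolar macrophage-like cells of both libraries than in AT2-like cells. Goblet-like cells held 0.178% of all kept UMIs in WT and 0.838% in KO, but 56.6% and 60.5% of the UMIs of Bpifa1, 76.6% and 54.2% of those of Bpifb1, and 57.2% and 72.4% of those of Reg3g.

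**Figure D1:**
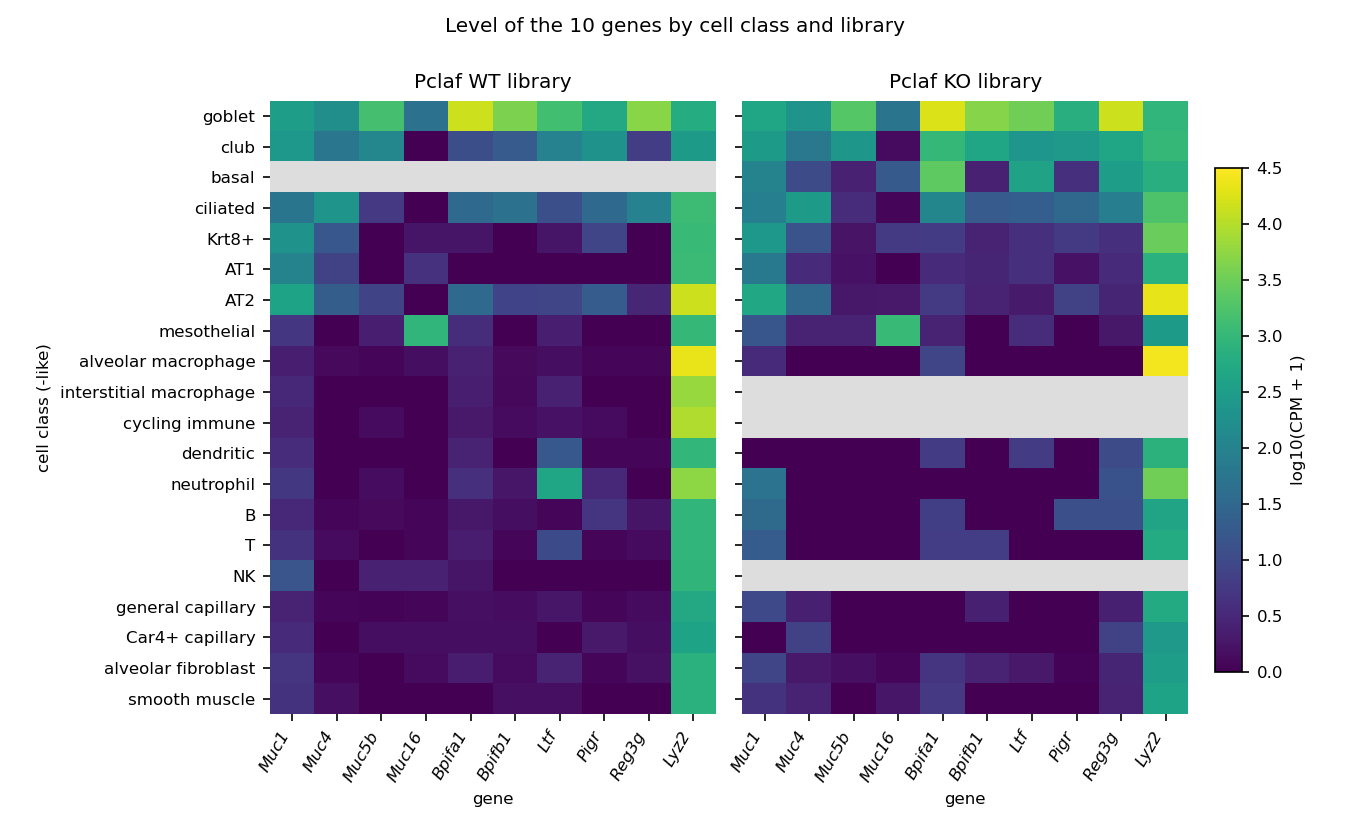
Level of each of the 10 genes (columns, log10 of CPM + 1 in colour) in selected cell classes (rows), with the WT library on the left and the KO library on the right. Classes under 30 cells in a library are grey, except the 13 WT goblet-like cells, and yellow marks the highest levels. Bpifa1, Bpifb1 and Reg3g are bright in the KO goblet-like row (18344, 4794 and 14586 CPM), Muc16 in the mesothelial-like row of both libraries (920 and 1083 CPM), and Lyz2 in AT2-like and macrophage rows.

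Gene positions are on GRCm38. The gel-forming mucin Muc5b (chr7:141839070-141873084, plus strand) was at 1510 CPM (1331 to 1706) in the goblet-like cells of WT and reached 2047 CPM (1953 to 2146) in those of KO. In club-like cells it was at 120 and 244 CPM, and in ciliated-like and AT2-like cells it was under 8 CPM in both libraries. Goblet-like and club-like cells held 61.8% and 20.7% of its UMIs in WT and 49.3% and 41.6% in KO. After every cell was thinned to 1000 UMIs, a Muc5b UMI was seen in 46.2% of 13 WT goblet-like cells (19.2 to 74.9) and 60.7% of 61 KO cells (47.3 to 72.9), against 84.6% and 73.8% without thinning. In thinned capillary endothelial-like cells it was seen in 0 of 4681 WT cells and 0 of 250 KO cells.

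The membrane mucins had 3 different distributions. Muc1 (chr3:89229057-89233381, plus strand), a broadly expressed epithelial mucin, was highest in AT2-like cells, at 407 CPM in WT (391 to 424) against 495 CPM in KO (489 to 501), and these cells held 70.9% and 78.8% of its UMIs. It was next highest among classes with at least 50 cells in club-like cells in WT (249 CPM) and in goblet-like cells in KO (445 CPM), where the interval overlapped that of AT2-like cells. Muc4 (chr16:32735886-32782391, plus strand) was highest in ciliated-like cells, at 215 CPM in WT (190 to 241) against 279 CPM in KO (268 to 289), with 53.2% and 51.8% of its UMIs there. Goblet-like cells followed, at 164 and 210 CPM, and in WT the interval for its 13 cells (109 to 238) overlapped that of ciliated-like cells.

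Muc16 (chr9:18495455-18674530, minus strand), a very large membrane mucin known from the body-cavity lining, was a mesothelial product in these libraries. In mesothelial-like cells, the covering of the lung, it was at 920 CPM in WT (850 to 993, 108 cells) against 1083 CPM in KO (1022 to 1147, 152 cells), and these cells held 94.5% and 87.6% of its UMIs. Its level in goblet-like cells was 47.0 CPM in WT, where 1 cell held 87.5% of 8 UMIs, and 52.7 CPM in KO (45 UMIs). No Muc16 UMI was counted in WT club-like, AT2-like or ciliated-like cells.

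The secreted genes were concentrated in goblet-like cells. Bpifa1 (chr2:154142880-154149219, plus strand), a surface-active antimicrobial protein of the conducting airway, was at 14480 CPM in WT (13914 to 15063) against 18344 CPM in KO (18058 to 18634). Bpifb1 (chr2:154190818-154220369, plus strand), a related larger protein of mucous cells, was at 4118 and 4794 CPM. Pigr (chr1:130826684-130852249, plus strand), which carries antibody across epithelium into secretions, was at 511 and 650 CPM in goblet-like cells and at 207 and 267 CPM in club-like cells, which held 31.8% of its UMIs in WT and 51.7% in KO. Goblet-like cells held 18.7% and 17.7% of its UMIs, less than club-like cells in both libraries.

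Bpifa1 was also present in basal-like cells, the stem cells of the airway lining. These cells had 22612 CPM of it in WT, but only 8 cells were found and 1 of them held 83.4% of the UMIs. In KO, 94 basal-like cells were at 2389 CPM (2269 to 2514), the second highest class, and 44.7% of them had a UMI. Reg3g was at 313 CPM in the same KO cells, where 25.5% had a UMI, while after thinning the shares were 16.0% there and 0.535% in KO lymphoid-like cells. The 243 Ltf UMIs of KO basal-like cells came mostly from 1 cell (90.5%).

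Ltf (chr9:111019271-111042767, plus strand) is stored by neutrophils as well as secreted by airway glands and epithelium, and its main source differed between the libraries. In WT, neutrophil-like cells held 63.3% of its UMIs, at 459 CPM (432 to 488), though only 5.33% of 882 cells had a UMI. In KO, 0 UMIs were counted in 41 neutrophil-like cells, which by the floor of 3 counts allows a level of up to 37.7 CPM. That limit takes UMIs as independent of cells. With the WT UMIs in 5.33% of cells, 41 cells are too few to set the KO level. Goblet-like cells held 14.2% of Ltf UMIs in WT and 56.5% in KO. The makeup differed too: neutrophil-like cells were 2.92% of WT and 0.262% of KO kept cells, and goblet-like cells 0.0431% and 0.390%. The part of makeup in the change of source was not tested. Cd45, against which the cells were sorted, marks leukocytes, and neutrophil-like cells were still 882 of the WT cells.

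Lyz2 (chr10:117277331-117282321, minus strand), lysozyme of myeloid and AT2 cells, was the most widely spread member. Among named WT classes it was highest in alveolar macrophage-like cells, at 22865 CPM, followed by AT2-like cells at 14533 CPM, while an unnamed immune cluster of 708 WT cells was at 27293 CPM. WT AT2-like cells held 14.1% of its UMIs and 6.07% of all kept UMIs. In KO, AT2-like cells were at 21812 CPM and held 90.0% of its UMIs and 49.4% of all kept UMIs. Alveolar macrophage-like cells were above them in KO too, at 25930 CPM in 43 cells. It was at 710 CPM in WT against 532 CPM in KO background cells, and 52.4% of WT and 59.7% of KO lymphoid-like cells had a Lyz2 UMI, so levels near these are at background. The near-identical gene Lyz1 shares sequence with Lyz2, and reads of both may be split or lost in counting. Lyz1 was at 840 CPM in WT against 1248 CPM in KO AT2-like cells.

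**Figure D2:**
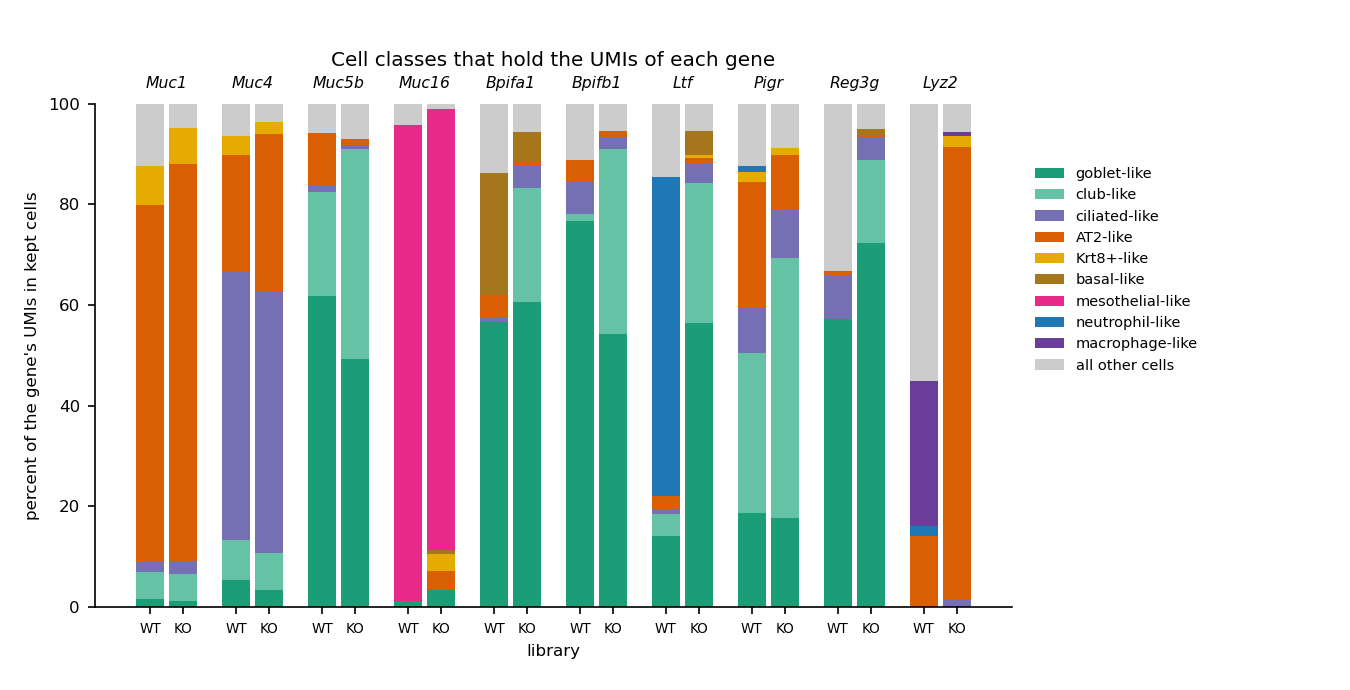
Share of each gene's UMIs (percent of its UMIs in all kept cells, stacked) that came from each group of cell classes, with 1 bar per gene and library. Bpifa1, Bpifb1 and Reg3g come mainly from goblet-like cells in both libraries, Muc16 from mesothelial-like cells, Muc1 from AT2-like cells, Ltf from neutrophil-like cells in WT and goblet-like cells in KO, and Lyz2 from AT2-like cells in KO.

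Between the libraries, goblet-like cells of KO had more Reg3g and more Ltf per UMI than those of WT, while the other 8 members were within 2-fold. Reg3g (chr6:78466269-78468872, minus strand), a lectin that kills Gram-positive bacteria, was at 4917 CPM in WT (4589 to 5261) against 14586 CPM in KO (14331 to 14845), a log2 ratio of 1.57 (1.47 to 1.67). Ltf was at 1392 CPM in WT (1221 to 1581) against 3314 CPM in KO (3193 to 3438), a log2 ratio of 1.25 (1.06 to 1.45). For both genes the counting intervals of the libraries did not overlap, which also held for Muc5b, Bpifa1, Bpifb1 and Lyz2. These intervals leave out the spread between cells. Thus 2 of 10 members were past 2-fold, both higher in KO, where 26.7% of 7795 genes were past 2-fold in either direction, 17.7% with KO higher and 9.08% with KO lower. All 10 members had at least 50 UMIs in this class, and 11.2% of the 2356 genes with that many were past 2-fold. The members' median log2 ratio was 0.39, and that of all genes 0.11.

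In the clustering used, all 10 members had a log2 ratio above 0 in goblet-like cells, but 4 turned in sign under alternatives. Bpifa1 was lowest without the upper gene limit (-0.96), Bpifb1 at a resolution of 0.4 (-0.21), Muc4 with all cells clustered (-0.18) and Muc16 with goblet-like and club-like cells as 1 class (-0.41). The remaining 8 ranged from 0.16 for Muc16 to 0.62 for Lyz2, with 0.34 for Bpifa1 (0.28 to 0.40), 0.22 for Bpifb1 (0.10 to 0.34), 0.44 for Muc5b (0.25 to 0.63) and 0.35 for Pigr (0.02 to 0.69). The intervals of Muc4 (-0.23 to 0.98) and Muc16 (-0.94 to 1.46) included 0. Scaling by TMM factors moved every log2 ratio up, by 0.11 in goblet-like, 0.23 in club-like, 0.34 in AT2-like, 0.10 in ciliated-like and 0.15 in Krt8+-like cells. The related gene Reg3b had 0 UMIs in goblet-like and club-like cells of both libraries.

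The goblet-like values of WT rest on few cells. Of the 13, 1 cell held 34.8% of the Reg3g UMIs and 1 held 46.2% of those of Bpifa1, against 9.45% and 11.2% for the leading KO cell. Leaving out the leading cell of each library gave log2 ratios of 1.86 for Reg3g and 1.63 for Ltf. Without the upper limit on genes per cell, which gave 11 WT and 75 KO goblet-like cells, Reg3g was at 0.98 and Ltf at 0.29. There 0 of 10 members were past 2-fold, beside 29.4% of genes. Reg3g was past 2-fold in 13 of 14 alternatives and Ltf in 10 of 14. Markers of neutrophils, which also hold Ltf, summed to 76.4 CPM in WT (4 of 10 markers seen) against 19.9 CPM in KO (5 of 10) in goblet-like cells. Club markers in goblet-like cells summed to 325008 CPM in WT against 258772 CPM in KO, and their part in the differences was not tested.

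**Figure D3:**
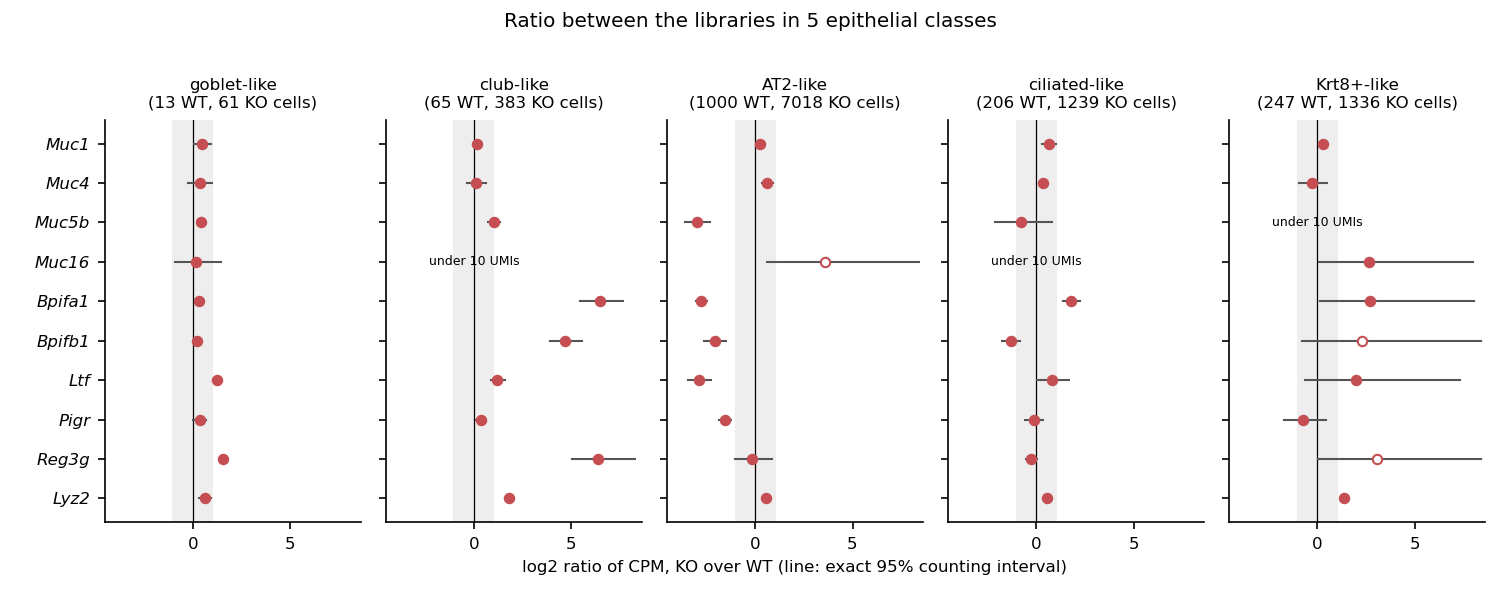
Log2 ratio of CPM, KO over WT, of the 10 genes (rows) in 5 epithelial classes (panels), with exact 95% counting intervals as lines, a grey band within 2-fold and open points where WT had 0 UMIs. Reg3g (1.57) and Ltf (1.25) stand past 1 in goblet-like cells, Bpifa1 (6.44) and Reg3g (6.37) reach the highest ratios in club-like cells, and several low-count genes stand below -1 in AT2-like cells.

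In club-like cells, the secretory cells of the small airway, 3 secreted genes that were under 20 CPM in WT were at 458 CPM or more in KO. Bpifa1 was at 11.2 CPM in WT (8 UMIs, 4.84 to 22.1) against 973 CPM in KO (948 to 998), a log2 ratio of 6.44 (5.46 to 7.65). Reg3g had 4 UMIs in WT and 2812 UMIs (464 CPM) in KO, a log2 ratio of 6.37 (5.01 to 8.25). Bpifb1 was at 18.2 and 458 CPM, a log2 ratio of 4.65 (3.88 to 5.56). Lower ratios were found for Lyz2 (283 and 985 CPM, 1.80), Ltf (99.4 and 229 CPM, 1.2) and Muc5b (120 and 244 CPM, 1.02). A further 159 WT cells, set aside from the mesenchymal clusters and in no class, also held these secreted genes. They had 407 Reg3g UMIs (27.8% of those in WT), 470 of Bpifa1 (10.8%) and 47 of Bpifb1 (5.14%). The 208 such KO cells held a smaller share of each. The part of set-aside cells in the club-like ratios was not tested.

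Muc1, Muc4 and Pigr were within 2-fold in club-like cells, at log2 ratios of 0.16, 0.10 and 0.36. Thus 6 of 9 members with at least 10 UMIs were past 2-fold, all higher in KO, where 18.3% of 11532 genes were past 2-fold, 10.2% with KO higher and 8.11% with KO lower. These 9 members also had at least 50 UMIs, and 7.31% of the 7511 genes with that many were past 2-fold. The 6 include Lyz2, whose WT level lay below that of WT background cells (710 CPM). The members' median log2 ratio was 1.2 and that of all genes -0.11. Muc16 had too few UMIs in this class.

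The club-like cells lay in 2 clusters. One, with 37 WT and 315 KO cells, had 11.6 and 1045 CPM of Bpifa1 and 1.93 and 502 CPM of Reg3g. The other, with 28 WT and 68 KO cells, had 10.2 and 161 CPM of Bpifa1 and 15.3 and 34.1 CPM of Reg3g. The former held 56.9% of WT and 82.2% of KO club-like cells. These club-like levels came from a minority of KO cells. A Bpifa1 UMI was found in 6.15% of WT and 21.1% of KO club-like cells, and after thinning to 1000 UMIs in 1.54% and 7.89%. Reg3g was found in 4.62% and 12.8% of cells, and after thinning in 0 of 65 WT cells, which allows a share with a UMI of up to 4.62% (3 counts of 65), and 8.42% of 380 KO cells. In thinned KO lymphoid-like cells both genes were seen in 0.535%. The leading KO cell held 26.2% of the Bpifa1 UMIs and 16.3% of those of Reg3g.

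Summed over all 383 KO club-like cells, the goblet markers were at 5777 CPM (8 of 8 seen) against 1806 CPM in WT (7 of 8), and the AT2 markers at 11109 against 6579 CPM. Their part in the result was not tested. When goblet-like and club-like cells were taken as 1 class, of 78 WT and 444 KO cells, a choice made after the data were seen, Bpifa1 was at 2796 and 3118 CPM (0.16) and Bpifb1 at 807 and 993 CPM (0.30). Reg3g was at 951 and 2208 CPM (1.22, 1.12 to 1.32) and Lyz2 at 344 and 977 CPM (1.51, 1.34 to 1.68). In that class 2 of 10 members were past 2-fold, both higher in KO, where 16.8% of genes were past 2-fold, 8.79% with KO higher and 7.98% with KO lower.

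**Figure D4:**
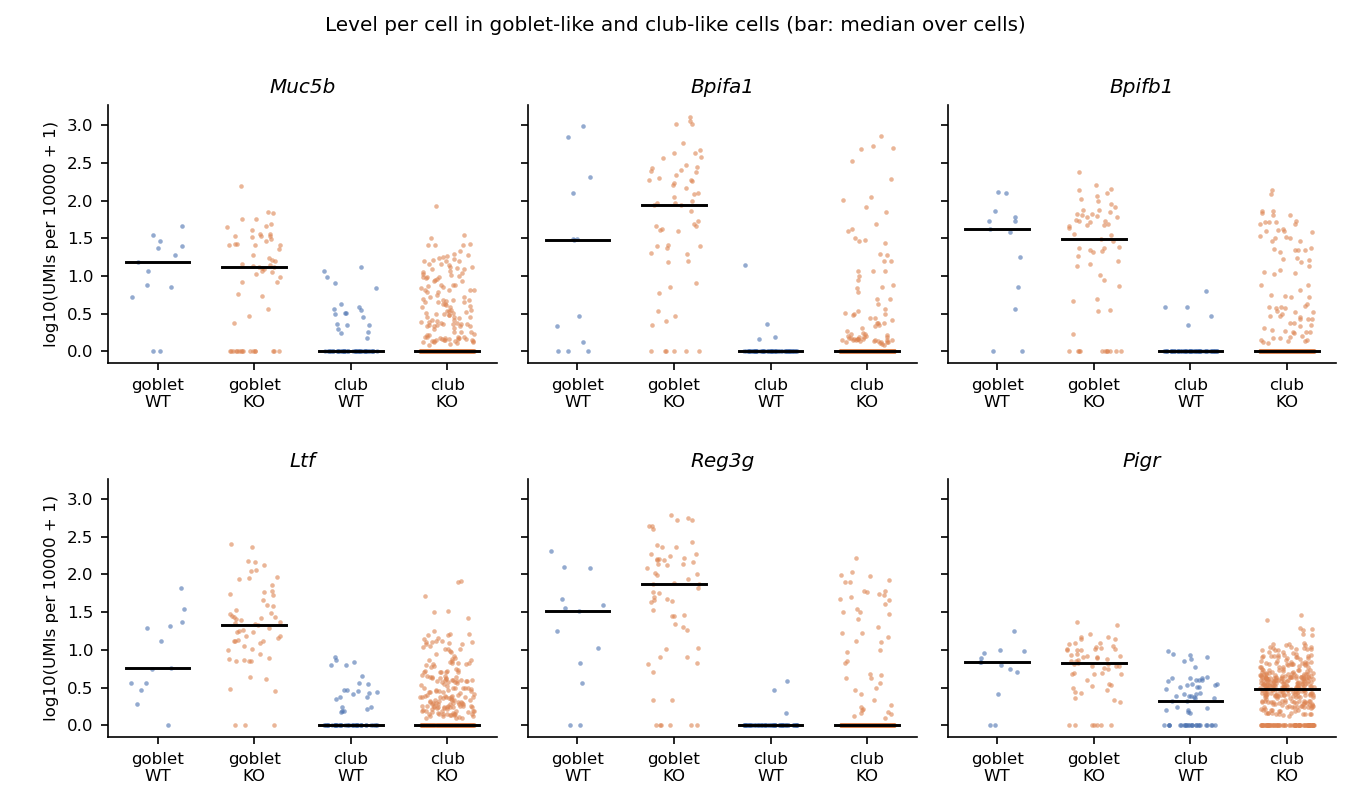
Level per cell (log10 of UMIs per 10000 + 1, 1 point per cell, bar at the median) of Muc5b, Bpifa1, Bpifb1, Ltf, Reg3g and Pigr in goblet-like and club-like cells of both libraries. In goblet-like cells the medians of Reg3g are 32.0 in WT and 73.4 in KO per 10000 UMIs, and in club-like cells the medians of Reg3g, Bpifa1 and Bpifb1 are 0 in both libraries, with a tail of KO cells above.

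Single goblet-like cells varied widely. Per 10000 UMIs, Bpifa1 ranged from 0 through a median of 28.9 to 958 in WT and from 0 through 86.8 to 1276 in KO. Reg3g ranged from 0 through 32.0 to 201 in WT and from 0 through 73.4 to 606 in KO. Ltf had medians of 4.82 and 20.7, while the medians of Bpifb1 (40.8 and 30.1), Muc5b (14.4 and 12.2) and Pigr (5.83 and 5.77) were slightly lower in KO, although their summed levels were higher. At least 10 per 10000 UMIs of Ltf were found in 6 of 13 WT and 45 of 61 KO goblet-like cells, and of Reg3g in 8 of 13 and 46 of 61.

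The secreted genes were found together in goblet-like cells. After thinning to 1000 UMIs a goblet-like cell held a median of 4 of the 10 members in WT and 5 in KO, and a club-like cell 1 in both. Bpifa1, Bpifb1 and Reg3g were all 3 seen in 53.8% of WT and 60.7% of KO goblet-like cells. The same 3 were seen together in 0% of 65 WT and 4.21% of 380 KO club-like cells. In ciliated-like cells the shares were 0.529% of 189 WT and 0.0824% of 1214 KO cells. They were 0% in AT2-like, Krt8+-like and basal-like cells of both libraries.

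In AT2-like cells, the surfactant-producing cells of the alveolus, Lyz2, Muc1 and Muc4 were higher in KO by less than 2-fold over the summed cells. Lyz2 was at 14533 CPM in WT (14435 to 14631) against 21812 CPM in KO (21771 to 21853), a log2 ratio of 0.59 (0.58 to 0.60). Muc1 was at 407 and 495 CPM (0.28, 0.22 to 0.34) and Muc4 at 20.5 and 31.9 CPM (0.64, 0.37 to 0.92). The AT2 markers were also higher, at a summed 120706 CPM in WT against 208400 CPM in KO, and their part in the result was not tested.

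WT and KO AT2-like cells lay in the same 9 clusters but in different shares. The cluster with most KO cells held 39.8% of them and 17.9% of WT cells, and another held 0.841% of KO and 13.6% of WT cells. Over the 9 AT2-like clusters, Lyz2 was higher in KO in 8, at a median of 1.42-fold. Muc1 was higher in KO in only 3 of 9, with a median of 0.862-fold, so within most clusters its direction was opposite to that of the summed cells. Muc4 was higher in KO in 7 of 8 clusters with enough UMIs, with a median of 1.09-fold.

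**Figure D5:**
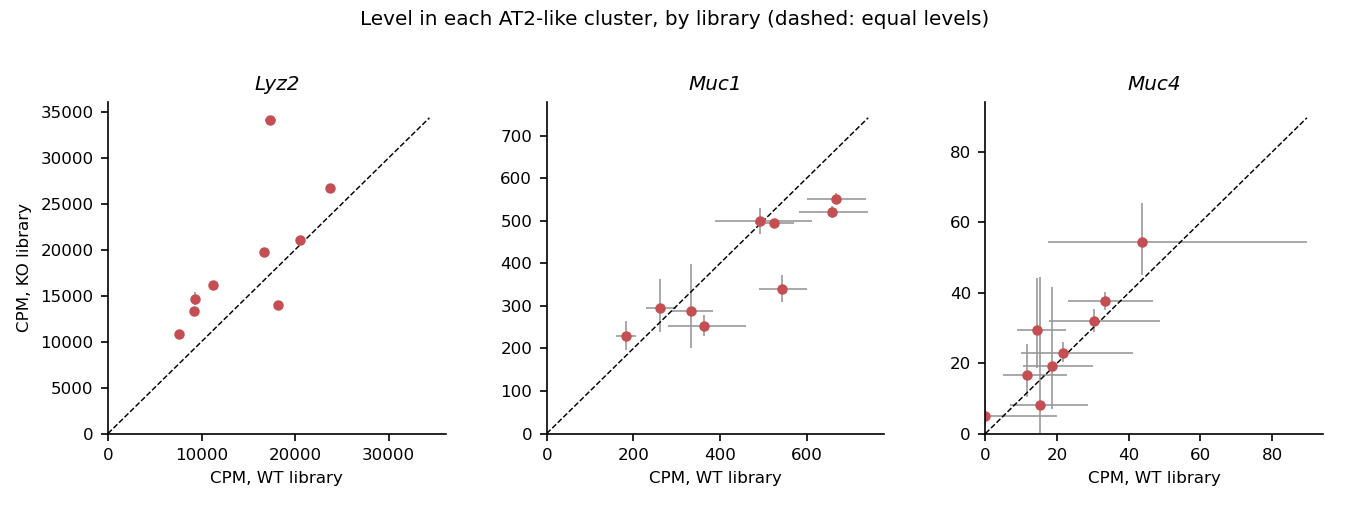
Level of Lyz2, Muc1 and Muc4 in each of the 9 AT2-like clusters (1 point per cluster), with WT CPM on the horizontal and KO CPM on the vertical axis, 95% counting intervals as lines and equal levels dashed. Lyz2 lies above the dashed line in 8 of 9 clusters and Muc1 in 3 of 9.

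The airway members were at low levels in AT2-like cells. Summed over the class, Bpifa1, Bpifb1, Muc5b, Ltf and Pigr were lower in KO. For the first 4 of these the clusters cannot settle a direction. KO was higher in 5 of 6 compared clusters for Bpifa1 and 3 of 4 for Bpifb1. It was higher in 2 of 3 for Ltf and 1 of 2 for Muc5b. In those clusters WT held 0 UMIs of the gene, or 2 of Bpifa1 in the cluster with most KO cells. They reached 10 UMIs only through KO, and each WT interval reached above the KO level. Bpifa1 was at 33.2 CPM in WT against 4.91 CPM in KO, but 1 of 1000 WT cells held 93.8% of its 193 UMIs, and without the leading cells the levels were 2.07 and 4.79 CPM. A single cluster, with 136 WT and 59 KO cells, held 189 of the 193. Pigr, which did not rest on 1 cell, was at 19.8 CPM in WT (16.3 to 23.8) against 6.79 CPM in KO (6.09 to 7.55), a log2 ratio of -1.54. Within clusters Pigr was higher in KO in 3 of 8, at a median of 0.610-fold, and the cluster with 13.6% of WT and 0.841% of KO cells had 35.8 and 41.1 CPM of it. Muc5b, Bpifb1 and Ltf were under 8 CPM in WT and under 2 CPM in KO, and 1 WT cell held over 50% of the UMIs of each (58.1%, 62.5% and 53.3%). Muc16 had 0 UMIs in WT and 51 in KO, 1.96-fold higher in KO against the floor of 3 counts. A cluster with 161 of the KO cells held 37 of the 51, and without called doublets the log2 ratio was 0.48.

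In all, 6 of 10 members were past 2-fold in AT2-like cells, 5 lower and 1 higher in KO, where 23.3% of 16444 genes were past 2-fold, 3.87% with KO higher and 19.4% with KO lower. All 10 had at least 50 UMIs, and 15.5% of the 13427 genes with that many were past 2-fold. With a floor of 3 counts for a WT level of 0 the number of members was 5, with 0 higher in KO, beside 21.8% of genes. With all cells clustered, 20 principal components or the marker gate, 0 members were past 2-fold with KO lower. Club markers in these cells summed to 29823 CPM in WT against 6728 CPM in KO, of which the club protein gene *Scgb1a1* had 26624 and 4274 CPM. The part of club RNA in the lower members was not tested.

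In ciliated-like cells, whose beating cilia move the mucus, Muc4 differed by a log2 ratio of 0.38 (0.20 to 0.56). Muc1 was at 54.8 and 85.8 CPM (0.65, 0.29 to 1.02). Bpifa1 was at 33.7 CPM in WT against 117 CPM in KO (1.80) and Bpifb1 at 46.2 and 18.8 CPM (-1.30). Both rest on single cells: the leading WT cell held 95.3% and 98.3% of their UMIs and the leading KO cell 57.4% and 60.7%. Without them Bpifa1 was higher in KO by a log2 ratio of 4.99, while Bpifb1 was at 0.789 and 7.40 CPM, higher in KO. Few cells carried the KO level of Bpifa1: 3 of 1239 KO cells had at least 10 of its UMIs per 10000. The cluster with 844 of the KO cells was at 6.66 CPM of Bpifa1, and the one with 395 at 389 CPM. Over the summed cells Bpifa1 and Bpifb1 were the 2 of 9 members past 2-fold, 1 higher and 1 lower in KO. Of 14475 genes 15.5% were past 2-fold, 6.56% with KO higher and 8.95% with KO lower. At a minimum of 50 UMIs it was 2 of 8 members and 6.53% of 11279 genes.

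The ciliated-like cells fell into 2 clusters. In the one with 89 WT and 844 KO cells, Lyz2 was at 346 and 311 CPM and Muc4 at 287 and 325 CPM, while in the one with 117 WT and 395 KO cells Lyz2 was at 1918 and 5302 CPM and Muc4 at 154 and 165 CPM. Over all ciliated-like cells the AT2 markers summed to 4459 CPM in WT against 16335 CPM in KO. Lyz2 was at 1202 and 1750 CPM over all of them (0.54, 0.47 to 0.62), above the background level in both libraries.

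In Krt8+-like cells, Lyz2 was at 1138 CPM in WT (1080 to 1197) against 2981 CPM in KO (2946 to 3017), a log2 ratio of 1.39 (1.31 to 1.47). Muc1 was at 199 and 246 CPM (0.30, 0.12 to 0.50), and Muc4 at 15.6 and 13.1 CPM. Bpifa1 and Reg3g were at levels close to those of KO background cells. Bpifa1 had 1 UMI in 247 WT cells and 46 UMIs in 1336 KO cells (4.99 CPM, against 4.27 CPM in KO background cells). Reg3g had 0 and 29 UMIs (3.15 CPM, against 2.85 CPM). Muc16 had 1 UMI in WT and 45 in KO (4.88 CPM), and Ltf 1 and 28 (3.04 CPM). Neither Muc16 nor Ltf had a UMI in the KO background cells, which held 1405947 UMIs in all. By the floor of 3 counts, 0 UMIs there does not place Ltf (2.02 to 4.39 CPM) above background. By ratio 6 of 9 members were past 2-fold, all higher in KO, where 13.8% of 14766 genes were past 2-fold, 7.23% with KO higher and 6.6% with KO lower. With a floor of 3 counts for a WT level of 0 the number was 4 of 9, beside 11.1% of genes. Among the 4 members with at least 50 UMIs only Lyz2 was past 2-fold, beside 4.28% of 10865 genes. AT2 markers in Krt8+-like cells summed to 21414 CPM in WT against 48796 CPM in KO, and their part in the Lyz2 difference was not tested.

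Other genes of the same functions are given from lists of related genes. Of the 10 other mucins with a row in the matrices, 2 had enough UMIs in goblet-like cells, Muc5ac (64.6 CPM in WT and 69.1 in KO) and Muc20 (47.0 and 64.4 CPM), and neither was past 2-fold. Of the other antimicrobial secretions, 3 of 7 genes with enough UMIs were past 2-fold, all higher in KO: Lyz1, the protease inhibitor Slpi and the iron-carrier binding protein Lcn2, which was at 176 and 1081 CPM (30 and 923 UMIs). Slpi, and Scgb1c1 among the secretoglobins given below, are named after their values were seen. The whey acidic protein Wfdc2, at 9622 and 16409 CPM, was not. Of the mucous cell programme, 5 of 14 were higher in KO past 2-fold, among them the disulfide isomerase Agr2, needed for mucin folding (200 and 791 CPM), and Gp2 (52.9 and 210 CPM). The mucous peptide Tff2 (2732 and 2774 CPM) and the chloride channel regulator Clca1 (758 and 465 CPM) were not. The gene-wide share with KO higher in this class was 17.7%. Agr2, Gp2, Tff2 and Scgb3a1 are among the goblet markers that named the class.

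Of the receptors and factors that relay IL-17, IL-6 and IL-22, 3 of 12 genes with enough UMIs were past 2-fold in goblet-like cells, all higher in KO, beside 17.7% of all genes. They were Cebpd and, named after their values were seen, Il10rb and Tnip3. The factor Cebpd had 1 UMI in WT and 39 in KO, a log2 ratio of 2.96 (0.40 to 8.30), while Stat3 was at 94 and 157 CPM and Cebpb at 117 and 123 CPM, both within 2-fold. The secretoglobins, the main club cell proteins, were mostly close: 1 of 4, Scgb1c1, was lower in KO past 2-fold, Scgb3a1 was at 36908 and 37124 CPM and Scgb3a2 at 40150 and 38763 CPM. In club-like cells Scgb3a1, which also marks goblet cells, was at 1361 and 4833 CPM and Tff2 at 30.8 and 356 CPM. None of the genes for secreted antibody or its transport other than Pigr had enough UMIs in goblet-like or club-like cells.

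The genes closest in pattern to each member were found by correlating log2(CPM + 1) over 39 points, the 24 WT and 15 KO classes with at least 50 cells. Points share libraries and differ in depth, so the values are descriptions. The 13 WT goblet-like cells were too few to be a point, so only the KO library gave a goblet-like point. Reg3g was closest to Bpifa1 (Pearson r of 0.94, Spearman rho of 0.66), and Bpifb1 to Tff2 (0.95 and 0.51). Bpifa1 was closest to Sult1d1 (0.96 and 0.71), Muc5b to Atp6v1b1 (0.96 and 0.55) and Ltf to Acsm1 (0.83 and 0.62). Muc1 was closest to the surfactant protein gene Sftpd (0.94 and 0.83), Muc4 to Rnf186 (0.97 and 0.89), Muc16 to Bnc1 (0.90 and 0.53), Pigr to Muc20 (0.92 and 0.73) and Lyz2 to Atp6v1b2 (0.87 and 0.78). By Spearman rank, the 3 closest genes shared at most 1 with the 3 by Pearson for every member.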

How the data were processed

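Single-cell 3' libraries of sorted lung cells were analysed, 1 for *Pclaf* WT and 1 for *Pclaf* KO. The files deposited by the authors are count matrices of raw UMIs, with genes by cell barcodes. The labels' processing notes name Cell Ranger 3.1.0, STAR and GRCm38 (mm10), while the headers of the deposited matrices name Cell Ranger 5.0.0. Whether introns were counted is not given in the sources used here.

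Cells with more than 200 and fewer than 5000 genes and under 20% mitochondrial UMIs were kept. Doublets were called with Scrublet in scanpy 1.11.5 and were left in, with their removal as an alternative. They were 7.19% and 2.70% of kept WT and KO cells, below the 24.5% and 13.7% set as the expected rates. Clusters were built from 2000 variable genes without the members, 10 principal components, 20 neighbours and a resolution of 0.8. Neighbours were found with scikit-learn 1.9.0 and clusters with igraph 0.11.9. All WT cells and 1 in 6 KO cells were clustered and the remaining KO cells were projected onto the clusters. Clusters were named "X-like" from at least 3 detected markers of that type. Clusters of a lineage whose markers named a type of another lineage were set aside and entered no class. Several naming rules were tried: folds within a lineage, folds over the median cluster, a separate airway round with either reference alone, and the combination used. The rule was settled after the members' values by class had been seen under the first. In the airway round the median cluster alone as reference named the goblet cluster club-like, and folds within the round alone left club clusters unnamed.

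Counts were summed per class and library. A member was compared where both libraries together held at least 10 UMIs, with 0.5 UMIs added to both sums where one was 0, and was called past 2-fold by the ratio alone. No test was made, since cells are not replicates. Scripts were tested on simulated data. The alternatives were other cell filters, clusterings, normalizations (TMM of edgeR 4.0.16), a single-cell marker gate and subtraction of background. Upstream sequences were read from RefSeq (GRCm38.p6) and positions from GENCODE on GRCm38. Beside the members, each list of related genes gave its 3 genes with the most UMIs in epithelial cells, and at most 3 per class that were past 2-fold with at least 50 UMIs. The members and lists were chosen with earlier results of these data known.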

Additional observations from a re-analysis of the deposited data

How the results depend on the processing

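No paired analysis was possible because each group has 1 library. In both libraries 7 of the 10 genes were highest in goblet-like cells of the 5 epithelial classes, under every alternative that gave a value. Alternatives with too few or no goblet-like cells, given at the end, could not show this. In goblet-like cells 2 of 10 members were past 2-fold, beside 26.7% of all genes compared. The number was 0 without the upper limit on genes (29.4% of genes), 1 with all cells clustered (31.8%) and 1 at a resolution of 0.4 (30.5%). It was 3 after background subtraction (48.7%), without the leading cell (26.8%) and with another draw of the KO cells (25.4%). In club-like cells 6 of 9 members were past 2-fold (18.3% of genes). This became 2 of 10 with goblet-like and club-like cells as 1 class (16.8%) and 3 of 9 without the upper gene limit (16.2%). It became 4 of 9 without called doublets (17.4%) and with all cells clustered (16.5%), and 5 of 9 at a resolution of 1.2 (17.2%). In AT2-like cells 6 of 10 members were past 2-fold, 1 higher and 5 lower in KO (23.3% of genes). This became 3, all higher in KO, with 20 principal components (23.1%). With all cells clustered it became 4, all higher in KO (14.0%). The marker gate again gave 6, but all higher in KO (21.0%). Without the leading cell 3 were higher and 3 lower in KO (23.3%). In ciliated-like cells 2 of 9 members were past 2-fold (15.5% of genes). It was 4 after background subtraction (36.2%), 4 without the leading cell (15.5%) and 4 without called doublets (14.1%). It was 5 with another draw of the KO cells (14.1%) and 7 with the marker gate (16.7%). In Krt8+-like cells 6 of 9 members were past 2-fold (13.8% of genes). After background subtraction it was 3 of 6 (41.8%), and at a minimum of 50 UMIs 1 of 4 (4.28%). With all cells clustered it was 4 of 8 (15.6%), and with the marker gate 7 of 10 (17.3%). Leaving out leading cells, taking goblet-like and club-like cells as 1 class and the floor of 3 counts were chosen after seeing the data.

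Of the log2 ratios past 2-fold, these turned in sign, and the cause was not tested except where the leading cell was removed. In AT2-like cells Bpifa1 was at 1.21 without the leading cells, where its KO level was close to that of KO background cells. With all cells clustered, AT2-like Bpifa1 was at 2.87, Muc5b at 2.70 and Bpifb1 at 1.71, and club-like Muc5b at -0.12. With 20 principal components, AT2-like Bpifa1 was at 2.59, Muc5b at 0.11 and Bpifb1 at 0.64. With the marker gate, AT2-like Bpifa1 was at 5.70, Bpifb1 at 4.83, Muc5b at 2.61, Ltf at 1.96 and Pigr at 0.46, while Lyz2 was at -1.21 in club-like and -1.52 in Krt8+-like cells. Ciliated-like Bpifb1 was at 3.23 without the leading cells, 4.33 without called doublets, 5.10 with another draw and 4.90 with the marker gate. Several ratios within 2-fold also turned: the sign held in 9 (Muc16), 11 (Bpifa1), 12 (Bpifb1) and 13 (Muc4) of 14 alternatives in goblet-like cells, for Muc1 in 10 of 16 in club-like cells, and for Reg3g in 10 of 15 in AT2-like and 11 of 16 in ciliated-like cells. Goblet-like cells gave no value at a mitochondrial limit of 10% (8 WT cells) or with the marker gate (1 WT and 2 KO cells). With 20 principal components no cluster was named goblet-like or club-like, so neither class gave a value. The 13 WT goblet-like cells limit every goblet comparison.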
